A study of Rattus norvegicus with 18 samples.

Results

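The 10 genes Il1a, Il1b, Il1rn, Il6, Tnf, Il10, Il18, Osm, Lif and Il16 encode cytokines tied to joint inflammation and pain, and they were taken by name from the 30643 genes in each deposited table. Each name matched 1 gene in each table. They were measured by sequencing of total RNA, after removal of ribosomal RNA, from cells of the rat knee synovium, the tissue lining the joint. All 18 libraries came from wild type male Sprague Dawley rats operated on at 12 weeks of age. OA surgery was an arthrotomy with transection of the anterior cruciate ligament and of the medial meniscotibial ligament, and sham surgery was the arthrotomy alone. At 4 weeks after surgery there were 5 OA and 5 sham libraries, each from a pool of 4 rats, and at 12 weeks there were 4 OA and 4 sham libraries, each from a pool of 3 rats. Synovial cells were dissociated with enzymes and sorted on magnetic beads for CD11b, an integrin chain of monocytes, macrophages and other myeloid cells, so that every group carries the effects of an arthrotomy, digestion and sorting.

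Cytokines are secreted proteins that carry signals between cells, and macrophages are a main source of several of them in the synovium. IL-1α and IL-1β signal through the same receptor, from which the receptor antagonist encoded by Il1rn displaces them without signalling. IL-1β and IL-18 are made as inactive precursors and are cut by caspase-1 in inflammasomes. TNF and the IL-1 cytokines act largely through the transcription factor NF-kB. IL-6, oncostatin M (Osm) and leukemia inhibitory factor (Lif) share the receptor chain gp130, encoded by Il6st. IL-10 restrains the production of inflammatory cytokines by macrophages, and IL-16 is released from a large precursor and binds CD4.

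Stretches before the transcription start are shown for Il1b and Il1rn, whose relation to each other differed between the groups at 4 weeks, and for Il1a and Il6, whose levels followed each other most closely from library to library. Each is the 250 bases before the start, read 5′ to 3′ from RefSeq on the GRCr8 assembly, at chr3:137036582-137036831 (minus strand) for Il1b, chr3:27520072-27520321 (plus strand) for Il1rn, chr3:136990018-136990267 (minus strand) for Il1a and chr4:5894576-5894825 (minus strand) for Il6. The authors aligned to another assembly, Rnor_6.0. Capitals mark the letters of the motifs searched.
Il1b: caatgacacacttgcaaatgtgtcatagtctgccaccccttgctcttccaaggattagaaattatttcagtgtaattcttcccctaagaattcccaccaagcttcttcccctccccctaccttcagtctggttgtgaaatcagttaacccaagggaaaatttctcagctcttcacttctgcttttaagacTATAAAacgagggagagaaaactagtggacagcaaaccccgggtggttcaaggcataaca
Il1rn: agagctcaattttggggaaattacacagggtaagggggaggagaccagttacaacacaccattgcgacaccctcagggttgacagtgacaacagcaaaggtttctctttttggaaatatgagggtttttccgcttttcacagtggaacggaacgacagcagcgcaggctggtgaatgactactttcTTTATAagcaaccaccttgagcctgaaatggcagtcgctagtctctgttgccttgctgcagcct
Il1a: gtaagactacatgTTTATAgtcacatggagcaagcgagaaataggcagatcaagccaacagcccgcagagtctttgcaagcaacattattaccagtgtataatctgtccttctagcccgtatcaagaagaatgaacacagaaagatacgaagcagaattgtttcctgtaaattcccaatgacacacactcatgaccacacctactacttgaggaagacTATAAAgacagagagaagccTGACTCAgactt
Il6: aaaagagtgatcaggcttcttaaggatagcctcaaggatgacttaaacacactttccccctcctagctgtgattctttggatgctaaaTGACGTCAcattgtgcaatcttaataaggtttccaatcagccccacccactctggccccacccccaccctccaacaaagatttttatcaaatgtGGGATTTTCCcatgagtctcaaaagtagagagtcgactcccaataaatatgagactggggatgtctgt
RefSeq promoters were found for 7 of the 10 genes, those of Il10, Osm and Lif being not analysed here. Windows of 300 bases, which run 50 bases past the start, were searched on both strands for TATAAA, for the AP-1 letters TGANTCA, for the CRE letters TGACGTCA and for the kappaB consensus. No 2 of these matches overlapped in the 7 windows. TATAAA was found in 4 of the 7 windows (Il1a, Il1b, Il1rn and Tnf) and in 14.2% of all 33469 promoters. The AP-1 letters were found in 3 (Il1a, Il16 and Il18) and in 7.33% of all promoters. The kappaB consensus was found in the window of Il6 only, as GGGATTTTCC, against 7.51% of all promoters, and Il6 was also the only one with TGACGTCA, against 1.83%. These are matches of letters and not measured binding sites.

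Recovered reads ranged from 4662344 to 18080503 per library (median 12884447.5). The smallest library, sham replicate 3 of 4 weeks, had a higher median level over all genes than any other. For this reason several results of the cytokine genes are given with and without it. The 4-week values of the pathway and marker lists below include it and were not computed without it. A level is given below in normalized reads, the reads of a gene after division by the size factor of its library. A count of 3 reads, taken as the floor of detection, corresponded to 2.06 to 6.96 normalized reads and covers counting error only. The 12 macrophage markers examined were present in every group, with a summed level at 4 weeks of 139650 to 168215 in OA and 141689 to 147965 in sham. The same sum at 12 weeks was 186865 to 222031 in OA and 154793 to 221023 in sham. Markers of other cells were also present. The summed level of 9 fibroblast markers at 12 weeks was 85392 to 110952 in OA and 58153 to 89507 in sham, that of 5 skeletal muscle markers 976 to 1632 and 697 to 866, without overlap, and that of 5 chondrocyte markers 2571 to 5341 and 1213 to 3295. The summed level of 11 neutrophil markers at 4 weeks ran from 1097 to 14434 in OA and from 1533 to 4809 in sham, and no marker list had a gene at 0 in every library. The part of these cells in the results was not tested, and in sorted bulk samples fewer cells of a type and less RNA per cell cannot be told apart.

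Comparisons of OA with sham were made at each time point separately, by limma across all genes averaging 10 normalized reads or more and, for each cytokine gene, by an exact permutation test over libraries (two-sided). Calls required a Benjamini-Hochberg adjusted p under 0.05 and a log2 fold change of 0.5 or more, up or down. Of the 10 cytokine genes, 9 were tested at each time point and Tnf was too low, and 0 of the 9 were called at either. Over all 14861 genes tested at 4 weeks limma called 0, or 0%, edgeR 0.00673% and DESeq2 0.209%. Over 14666 genes at 12 weeks limma and edgeR each called 0% and DESeq2 0.682%. Neither edgeR nor DESeq2 called a cytokine gene. At an unadjusted p under 0.05, limma passed Il18 at 4 weeks and Il18 and Lif at 12 weeks, all higher in OA, against 4.1% of all genes higher and 3.82% lower at 4 weeks and 5.75% higher and 6.62% lower at 12 weeks. By the sign of the difference, 5 of the 10 genes were higher in OA and 5 lower at 4 weeks, and 6 were higher and 4 lower at 12 weeks. The median log2 fold change of the 9 tested genes was 0.22 at 4 weeks and 0.13 at 12 weeks, and that of all genes was 0.03 and -0.01.

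**Figure D1:**
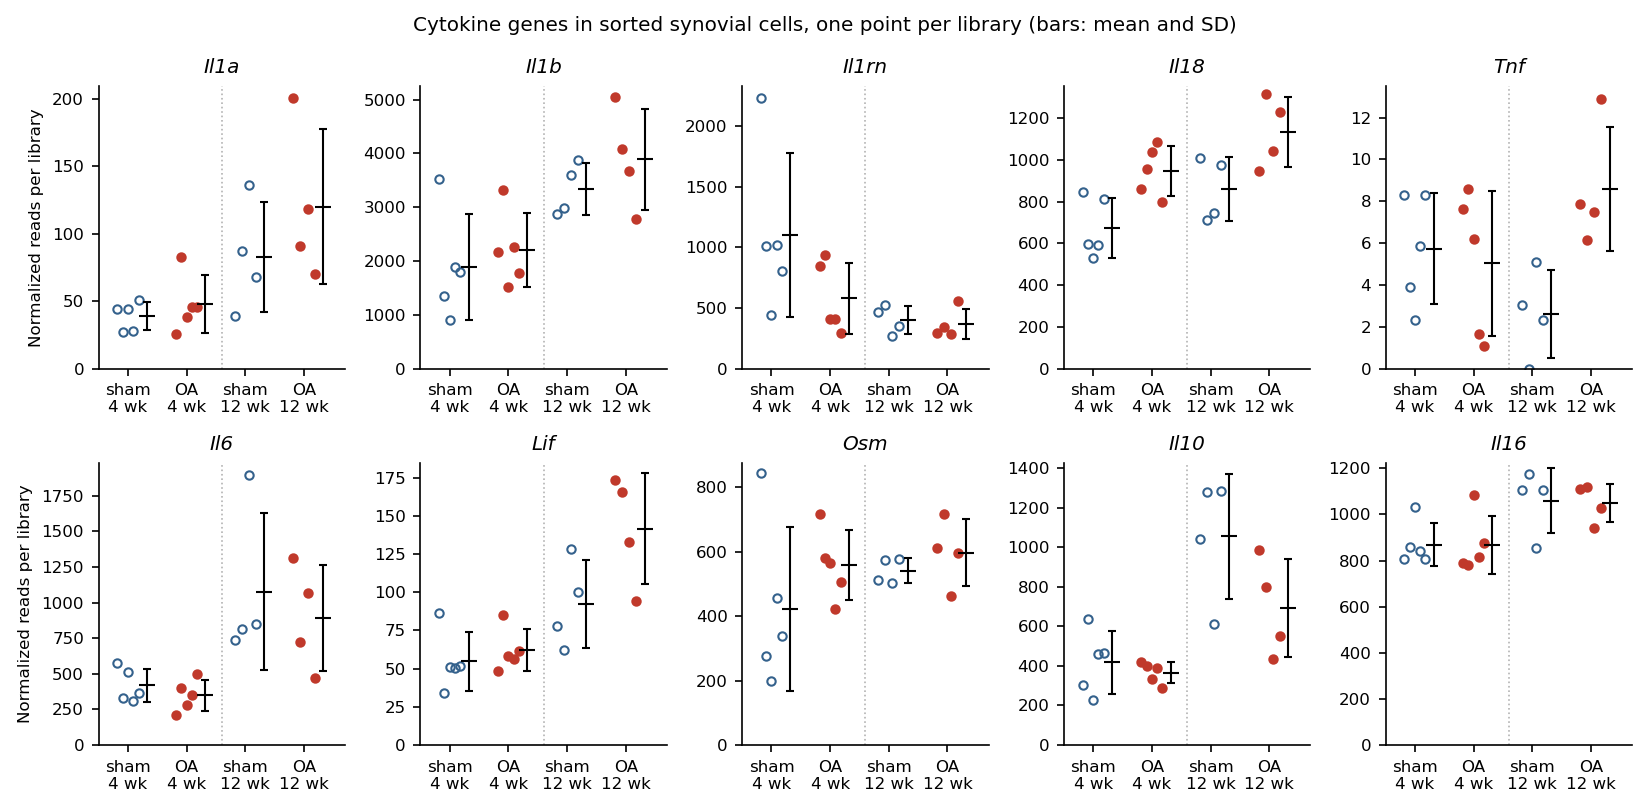
Normalized reads (linear axes from 0) of the 10 cytokine genes in each library, with open blue points for sham, filled red points for OA, and bars for the group mean and SD. Il18 was higher in 4 of 5 OA libraries at 4 weeks than in any sham library. Tnf, with at most 12 reads per library at either time point, was the one of the 10 whose groups did not overlap at 12 weeks. At 12 weeks OA also lay above sham without overlap for 1.87% of genes with a read and a mean under 10, and for 2.85% of genes tested.

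**Figure D2:**
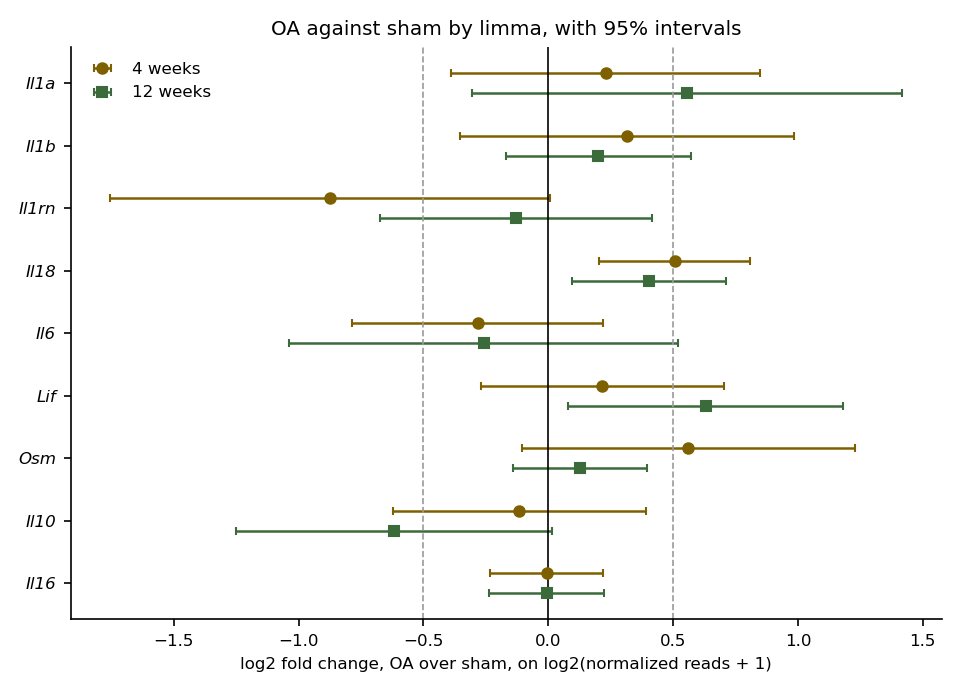
Log2 fold changes of OA over sham from limma, on log2(normalized reads + 1), with 95% intervals, at 4 weeks (circles, 5 against 5 libraries) and 12 weeks (squares, 4 against 4). Dashed lines mark 0.5 in either direction, and the intervals lie above 0 for Il18 at both time points and for Lif at 12 weeks.

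Il18, which encodes the IL-1 family cytokine known for its induction of interferon gamma, had the smallest p of the 9 tested cytokine genes in limma at both time points. The order depended on the test. Tnf had a smaller p in the exact permutation test at 12 weeks. In limma with a replicate block, Il1rn had a smaller p at 4 weeks (0.00373, against 0.012 for Il18). In the same fit Il10 had a smaller p at 12 weeks (0.00408, against 0.0181 for Il18). That block matches OA and sham libraries by number only. They came from different rats, and the labels name no shared block. At 4 weeks the level of Il18 in the OA libraries was 862, 956, 1039, 1088 and 799 normalized reads, and in the sham libraries 847, 596, 532, 592 and 811. All but the lowest OA library stood above the highest sham library, so the groups overlapped by that one. The log2 fold change was 0.51 (SE 0.14, 95% interval 0.20 to 0.81), or 1.42-fold, with an adjusted p of 0.403 in limma and of 0.105 in DESeq2, and the exact permutation test gave p = 0.0238, where the smallest p of 5 against 5 libraries is 0.00794. Without sham replicate 3 the log2 fold change was 0.43 and the exact p 0.0476, and no library left out took the exact p above that.
At 12 weeks Il18 measured 947, 1316, 1043 and 1231 normalized reads in OA and 1010, 712, 747 and 976 in sham. Again all but the lowest OA library stood above every sham library. Its log2 fold change was 0.40 (SE 0.14, 95% interval 0.09 to 0.71), or 1.32-fold, with an adjusted p of 0.332 in limma, and the exact permutation test gave p = 0.0857. No cytokine gene passed the adjustment over all genes, and the smallest adjusted p of any gene was 0.0702 at 4 weeks and 0.181 at 12 weeks.

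Il1b, the IL-1 cytokine released after cutting by caspase-1, varied within sham at 4 weeks by more than the groups differed. It measured 2159, 3313, 1512, 2254 and 1779 normalized reads in OA and 3521, 1356, 898, 1880 and 1796 in sham. The highest and the lowest of these 10 libraries were both sham libraries, replicates 1 and 3. On the log2 scale the fold change was 0.32 (SE 0.31, adjusted p = 0.787 in limma), 0.08 without sham replicate 3 and 0.58 without sham replicate 1. The 12-week libraries measured 5047, 4082, 3666 and 2780 in OA and 2877, 2993, 3603 and 3885 in sham, with a log2 fold change of 0.20 (SE 0.17, adjusted p = 0.629 in limma). OA libraries were both the highest and the lowest, so the groups overlapped over the whole range of the sham libraries.

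Il1a, whose product also signals from the cell surface and as the uncut precursor, had few reads. At 4 weeks it measured 25.7, 82.9, 38.5, 45.7 and 45.5 normalized reads in OA and 44.2, 27.1, 44.1, 28.1 and 50.6 in sham, and the spread in OA enclosed that of sham. Its fold change was 0.23 on the log2 scale (SE 0.28, adjusted p = 0.831 in limma), and ran from 0.01 without OA replicate 2 to 0.42 without OA replicate 1. The 12-week libraries had 200.7, 90.9, 118 and 69.7 in OA and 39.3, 86.8, 136 and 67.8 in sham. OA replicate 1 was the highest and sham replicate 1 the lowest. A log2 fold change of 0.56 (SE 0.39, adjusted p = 0.557 in limma) was 0.27 without the former and 0.25 without the latter. It was 0.84 without sham replicate 3 (unadjusted p = 0.0392 in limma) and 0.78 without OA replicate 4.

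Il1rn, the receptor antagonist, had the most negative log2 fold change of the cytokine genes at 4 weeks. It measured 851, 935, 406, 411 and 296 normalized reads in OA and 2234, 1014, 441, 1020 and 803 in sham. In OA 3 of the 5 libraries lay below the lowest sham library, which was replicate 3, and sham replicate 1 was the highest of all. In limma the log2 fold change was -0.87 (SE 0.40, 95% interval -1.75 to 0.01), with an adjusted p of 0.633 and an exact permutation p of 0.0794. It was -1.15 without sham replicate 3, with an exact p of 0.0476, and -0.57 without sham replicate 1, so the size of the difference depended on single sham libraries. The 12-week level was 293, 340, 286 and 556 in OA and 466, 523, 268 and 348 in sham, with a log2 fold change of -0.13 (SE 0.25, adjusted p = 0.840 in limma).

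The antagonist was also set against Il1b in each library, as the log2 level of Il1rn minus that of Il1b. This is a description without a test. In the 5 OA libraries of 4 weeks it ran from -2.58 to -1.34, with a mean of -2.02 ± 0.50 (SD, n = 5). In the 5 sham libraries it ran from -1.16 to -0.42, with a mean of -0.83 ± 0.30 (SD, n = 5). Every OA library was below every sham library. The means lay 1.19 log2 units apart in these libraries, and leaving out any 1 library gave a difference, OA minus sham, between -1.36 and -1.05. The difference without sham replicate 3 was -1.24. When each of the 14860 other tested genes, Il1rn included, was set against Il1b in the same way, OA lay below sham with no overlap for 46 of them, or 0.31%. The wide spread of Il1b within sham enters each of these differences, and genes that do not follow Il1b can hardly separate. Genes that follow Il1b as closely as Il1rn does were not compared apart, so the share does not show how unusual Il1rn is. At 12 weeks the OA mean was -3.42 ± 0.77 (SD, n = 4) against a sham mean of -3.09 ± 0.61 (SD, n = 4), and the groups overlapped. At that time 3.74% of genes set against Il1b lay below sham without overlap. All 8 libraries of 12 weeks lay below every sham library of 4 weeks on this measure.

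**Figure D3:**
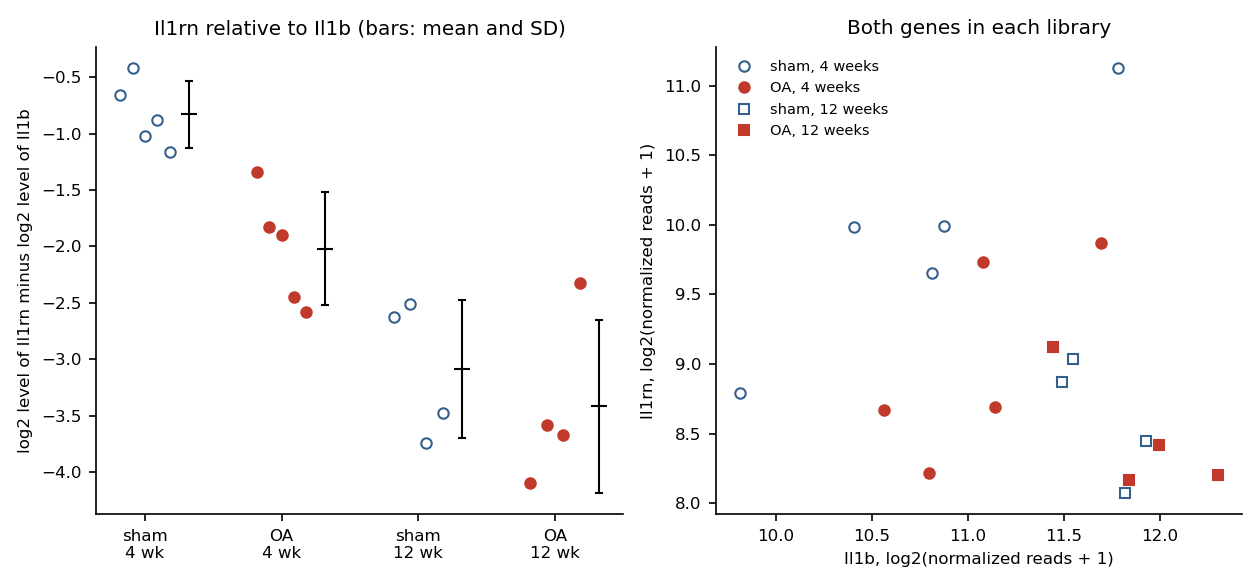
Left, the log2 level of Il1rn minus that of Il1b in each library with group means and SD, and right, both levels in each library as log2(normalized reads + 1). At 4 weeks the OA libraries lie between -2.58 and -1.34 and the sham libraries between -1.16 and -0.42, while the groups overlap at 12 weeks.

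Tnf was close to the floor in every library. At 4 weeks it had 11, 9, 9, 2 and 1 reads in OA and 9, 4, 1, 5 and 9 in sham, and the exact permutation test gave p = 0.595. At 12 weeks it had 9, 6, 7 and 12 reads in OA and 4, 0, 4 and 2 in sham, or 7.85, 6.13, 7.51 and 12.9 normalized reads against 3.02, 0, 5.09 and 2.30. All 4 OA libraries lay above the sham libraries, whose levels were near that of 3 reads, so no fold change is given. The exact permutation test gave p = 0.0286, which is the smallest that 4 against 4 libraries allow, and limma over all 28435 genes with a read gave an adjusted p of 0.386. Of the 13769 genes with a read and a mean under 10 at 12 weeks, 1.87% had all OA libraries above all sham libraries, against 2.85% of the genes tested. Of 9 fibroblast markers, 6 were higher in OA at the same time and 1 lower at an unadjusted p under 0.05 in limma, and 0 were called. Over all genes 5.75% were higher and 6.62% lower at that p. Of 12 macrophage markers, 10 had a positive log2 fold change, with 0 at that p in either direction. The part of either cell type in the level of Tnf was not tested.

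Of the gp130 cytokines, Lif had the largest log2 fold change at 12 weeks. It measured 174, 165, 133 and 94.4 normalized reads in OA and 77.8, 61.9, 128 and 100 in sham. All but the lowest OA library exceeded every sham library, and sham replicate 3 came close to them. The log2 fold change was 0.63 (SE 0.25, 95% interval 0.08 to 1.18), or 1.55-fold, with an adjusted p of 0.368 in limma and an exact permutation p of 0.114. It ran from 0.46 to 0.81 with a library left out. At 4 weeks Lif measured 48.5, 84.8, 58.4, 56.5 and 61.8 in OA and 86.6, 33.9, 51.1, 50.4 and 51.6 in sham, with a log2 fold change of 0.22 (SE 0.22, adjusted p = 0.796 in limma).

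Osm measured 717, 581, 566, 421 and 504 normalized reads in OA at 4 weeks and 843, 275, 200, 456 and 337 in sham. Sham replicate 1 was the highest library of all and 3 of the other 4 sham libraries lay under the OA range. Its log2 fold change was 0.56 (SE 0.31, adjusted p = 0.658 in limma), with an exact permutation p of 0.167. It was 0.86 without sham replicate 1, with an exact p of 0.0317, and 0.34 without sham replicate 3. At 12 weeks Osm measured 612, 716, 463 and 594 in OA and 513, 573, 501 and 576 in sham, and the log2 fold change was 0.13 (SE 0.12, adjusted p = 0.675 in limma).

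Il6 was lower in OA on average at both time points, well within its spread. At 4 weeks it measured 212, 397, 279, 350 and 502 normalized reads in OA and 573, 334, 515, 307 and 365 in sham, with a log2 fold change of -0.28 (SE 0.23, adjusted p = 0.752 in limma). By 12 weeks it measured 1311, 725, 1066 and 469 in OA and 740, 816, 1900 and 849 in sham, where replicate 3 stood apart from the other 3 sham libraries. A log2 fold change of -0.26 (SE 0.35, adjusted p = 0.774 in limma) became 0.05 without that library and 0.02 without OA replicate 4.

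Il10, the cytokine of this set best known for restraining inflammation, had the most negative log2 fold change at 12 weeks. It measured 984, 801, 434 and 550 normalized reads in OA and 1040, 1281, 612 and 1285 in sham. In OA 2 of 4 libraries were below the lowest sham library, and the rest were below the other 3 sham libraries. The log2 fold change was -0.62 (SE 0.28, 95% interval -1.25 to 0.01), with an adjusted p of 0.411 in limma and an exact permutation p of 0.171. It was -0.86 without sham replicate 3 and -0.42 without OA replicate 3. At 4 weeks it measured 420, 399, 335, 391 and 286 in OA and 304, 637, 227, 459 and 465 in sham, with a log2 fold change of -0.12 (SE 0.23, adjusted p = 0.896 in limma), which became 0.06 without sham replicate 2.

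Il16 had the narrowest intervals of the set. At 4 weeks it measured 779 to 1082 normalized reads in OA (median 813) and 805 to 1031 in sham (median 841), and at 12 weeks 942 to 1119 in OA (median 1070) and 853 to 1176 in sham (median 1106). The log2 fold change was -0.01 at both time points, with 95% intervals of -0.23 to 0.22 at 4 weeks and -0.24 to 0.22 at 12 weeks, and its sign at 4 weeks changed with TMM scaling (0.04). A change of 0.5 in either direction lay outside both intervals for Il16. The intervals of Il1a, Il1b, Il18 and Lif reached past 0.5 at both time points, and those of Il1rn, Il6 and Il10 past -0.5. That of Osm reached past 0.5 at 4 weeks (-0.11 to 1.23) but not at 12 weeks (-0.14 to 0.39).

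Whether the OA-sham difference itself differed between the time points was examined in limma on log2 CPM (recovered reads over the library total, with TMM scaling) of all 18 libraries. None of the 9 cytokine genes tested passed an adjusted p of 0.05 (0.770 to 0.984), nor did any of 15107 genes in all (0%), while 4.21% had an unadjusted p under 0.05, none of them a cytokine gene. The largest such differences were for Il1rn, 0.69 (SE 0.56, 95% interval -0.48 to 1.86) and Il10, -0.55 (SE 0.41, 95% interval -1.41 to 0.30), 12 weeks minus 4 weeks. For Il18 the log2 CPM difference between OA and sham was 0.55 at 4 weeks and 0.40 at 12 weeks, and the interval of their difference ran from -0.63 to 0.32.

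The levels at the 2 time points were set side by side in CPM, with no test, because time after surgery cannot be told apart from the number of rats per pool and the separate tables. Il6 was 29.6 ± 9.44 CPM (SD, n = 5) at 4 weeks and 66.8 ± 27.7 (n = 4) at 12 weeks in OA, and 34.3 ± 9.39 (n = 5) and 80.2 ± 39.9 (n = 4) in sham. The sham libraries of 12 weeks all lay above those of 4 weeks, as they did for 4.49% of all genes, while the OA libraries overlapped. The mean of Il10 in sham was 34.7 ± 13.6 CPM at 4 weeks and 79.0 ± 24.2 at 12 weeks. Il1rn ran the other way, with 91.7 ± 57.6 CPM in sham and 49.4 ± 24.8 in OA at 4 weeks, and 30.1 ± 8.90 and 27.6 ± 9.42 at 12 weeks. The order of its 4 groups was therefore sham and OA of 4 weeks, then sham and OA of 12 weeks, and each group overlapped its neighbour in that order.
The 12-week mean was also above the 4-week mean in both groups for Il1a (2.21 times in OA and 1.93 in sham), Lif (2.01 and 1.52) and Il1b (1.55 and 1.59). For Il18, Osm and Il16 the ratio was between 0.94 and 1.15. Apart from Il6 in sham, the libraries of the 2 time points overlapped for all of these genes. Over all genes, OA libraries of 12 weeks lay above those of 4 weeks for 4.7% and below for 5.43%, and sham libraries lay below for 1.78%.

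Some pairs of the cytokine genes followed each other within groups and others did not. Pearson's r was computed over the 18 libraries on log2 CPM after subtraction of each group mean, and is given as a description, since the libraries share depth and cell makeup. Of 36 pairs of the 9 genes, 7 had an r over 0.6, 4 were under -0.3 and the lowest, Il1b with Il16, was -0.43. Over all pairs of genes tested at both time points, 9.54% had an r over 0.6. Without sham replicate 3 of 4 weeks 6 of the 36 pairs passed 0.6, against 3.4% of all pairs, and the lowest was Il6 with Il10 (-0.42). Il1a and Il6 had the highest (0.80), followed by Il1b with Osm (0.76), Il1rn with Osm (0.75), Il1b with Lif (0.71), Il6 with Lif (0.70), Il1a with Lif (0.64) and Il1b with Il1rn (0.60). The last of these was 0.45 without sham replicate 3, and the other 6 stayed between 0.65 and 0.80. Il18, Il10 and Il16 were in none of these pairs, and Il10 with Il16 was 0.24 with that library and 0.44 without it.

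**Figure D4:**
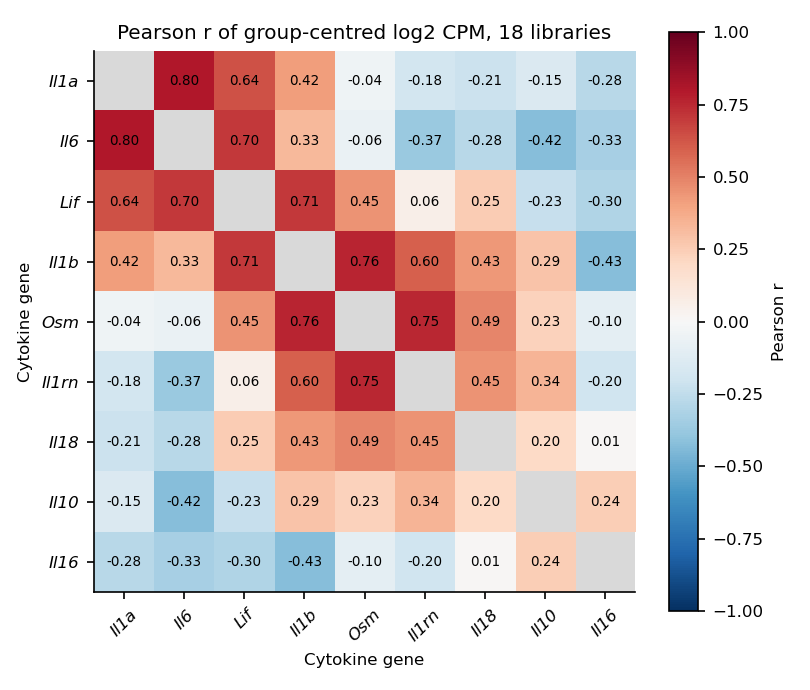
Pearson's r between pairs of the 9 cytokine genes averaging 10 or more normalized reads, on log2 CPM over 18 libraries after subtraction of each group mean (colour scale from -1 to 1). Il1a, Il6 and Lif are linked by values of 0.64 to 0.80, and Il1b and Osm by 0.76, while the highest value of Il16, with Il10, is 0.24 (0.44 without sham replicate 3 of 4 weeks).

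Among the 14419 other genes tested at both time points, the genes most like each cytokine gene on this measure were looked up. They were chosen with all 18 libraries. Without sham replicate 3 of 4 weeks their r ran from 0.80 (Il1a with Il6) to 0.94 (Il1rn with Itgax). That of Osm with Mreg was then 0.87 and that of Il10 with Fanca 0.82. The nearest to Il1b were Pim1 (r = 0.93), a kinase, Cxcl1 (r = 0.92), a neutrophil chemokine, and Hspa5 (r = 0.91), a chaperone of the endoplasmic reticulum. For Il1rn they were Itgax (r = 0.96), the integrin chain CD11c, Mmp12 (r = 0.94), the macrophage elastase, and Prdx5 (r = 0.93). For Osm they were Slc16a3 (r = 0.94), a lactate transporter, Ptgs2 (r = 0.91), the inducible cyclooxygenase, and Mreg (r = 0.91). Those of Lif were Maff (r = 0.86), Jun (r = 0.84) and Nfkbia (r = 0.81), of which Maff and Jun encode bZIP transcription factors and Nfkbia an inhibitor of NF-kB. Il18 was nearest to AABR07068285.2 (r = 0.93), Ostm1 (r = 0.91) and Siglec15 (r = 0.91), of which the last is a lectin of the myeloid lineage.
For Il6 the nearest were Pdia5 (r = 0.93), Efemp1 (r = 0.92) and Dcun1d3 (r = 0.92), and for Il1a they were Pcgf2 (r = 0.85), Pdia5 (r = 0.83) and Il6 itself. Efemp1 encodes a matrix protein of fibroblasts. Il10 was nearest to Slc25a28 (r = 0.88), Fanca (r = 0.87) and Asgr2 (r = 0.85). Il16 was nearest to RGD735065 (r = 0.89), Slc6a4 (r = 0.83), the serotonin transporter, and Cma1 (r = 0.83), the mast cell chymase. Mast cell markers had a summed level of 1041 to 1987 normalized reads in OA and 1476 to 2302 in sham at 4 weeks, and their part in the level of Il16 was not tested.

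The genes through which these cytokines are received, released and controlled were read from the same fits, in 6 lists, and 0 genes of any list were called at either time point. Of 15 receptors and binding proteins, 2 had an unadjusted p under 0.05 in limma in the higher direction and 2 in the lower at each time point, with a median log2 fold change of 0.03 at 4 weeks and -0.11 at 12 weeks. Il10rb, a chain of the IL-10 receptor, measured 1234 to 1388 normalized reads in OA and 959 to 1218 in sham at 12 weeks, without overlap (log2 fold change 0.21, SE 0.08, adjusted p = 0.368 in limma), as OA lay above sham for 2.85% of all genes. At 4 weeks the list ran from Lifr, the receptor of LIF (log2 fold change -0.36, adjusted p = 0.570 in limma), to Il1r2, the decoy receptor of IL-1 (0.41, adjusted p = 0.717 in limma). At 4 weeks 1.18% of all genes had OA above sham without overlap and 0.693% below, and no gene of the 6 lists was among them.

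Over all genes the median log2 fold change was 0.03 at 4 weeks and -0.01 at 12 weeks, and shares by sign were not computed. Of 13 genes for processing and release, 10 had a positive log2 fold change at each time point, with a median of 0.11 at 4 weeks and 0.09 at 12 weeks. Nlrp3, the sensor of an inflammasome that activates caspase-1, was the highest at both (0.42, adjusted p = 0.666 at 4 weeks, and 0.21, adjusted p = 0.378 at 12 weeks, in limma), and Casp4 was the lowest (-0.07 and -0.16). At 4 weeks Nlrp3 measured 1550 to 1950 normalized reads in OA and 606 to 1744 in sham, with overlap. How far its fold change and the 4-week median of this list rest on sham replicate 3 was not tested.
Of 15 NF-kB subunits, kinases and inhibitors, 9 were positive at 4 weeks, with values between -0.13 for Tnip1 and 0.16 for Tnfaip3, and 3 at 12 weeks, with medians of 0.02 and -0.06. Relb, an NF-kB subunit, measured 391 to 444 normalized reads in OA and 492 to 555 in sham at 12 weeks (log2 fold change -0.29, SE 0.07, adjusted p = 0.269 in limma), and Nfkbib, an NF-kB inhibitor, 371 to 404 against 408 to 440 (-0.12, SE 0.07, adjusted p = 0.455 in limma). Neither overlapped, as held for 3.44% of all genes with OA below sham.

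The 9 genes of mRNA decay and feedback had a median log2 fold change of -0.05 at 4 weeks, from Socs3 (-0.19) to Zfp36l2 (0.35), and of -0.10 at 12 weeks, from Zc3h12a (-0.39, adjusted p = 0.378 in limma), an RNase that degrades cytokine mRNA, to Socs1 (0.00). Of 25 other cytokine genes, 13 were high enough to be tested at 4 weeks and 12 at 12 weeks, and 10 of 13 and 12 of 12 had a negative log2 fold change. Their median was -0.17 at 4 weeks and -0.30 at 12 weeks, against 0.03 and -0.01 over all genes, whose share by sign was not computed. At 12 weeks Cntf, a cytokine of the gp130 group, measured 49.3 to 68.4 normalized reads in OA and 70.1 to 78.2 in sham without overlap (log2 fold change -0.36, SE 0.15, adjusted p = 0.381 in limma). OA lay below sham without overlap for 3.44% of all genes at that time. At 4 weeks the values ran from Il12a (-0.88, adjusted p = 0.639 in limma), a subunit of IL-12, to Cntf (0.15). Il12a was near the floor of detection, with 2.86 to 13.9 normalized reads in OA and 9.21 to 30.2 in sham. Cntf measured 49.0 to 82.4 in OA and 27.9 to 70.3 in sham, so both genes overlapped. Neither value was computed without sham replicate 3, so the sign for Cntf is uncertain.
Of the 11 immediate early and heat shock genes present in the tables, which can respond to dissociation of tissue, 4 were positive at 4 weeks, from Egr1 (-0.14) to Hspa1b (0.20), and 3 at 12 weeks, with medians of -0.01 and -0.08. Egr1 measured 6634 to 9572 normalized reads in OA and 9769 to 11368 in sham at 12 weeks, without overlap (log2 fold change -0.34, SE 0.12, adjusted p = 0.332 in limma). The same held for 3.44% of all genes with OA below sham. The part of dissociation in the levels of the cytokine genes was not tested.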

How the data were processed

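Total RNA of CD11b-sorted synovial cells was sequenced in 18 libraries, grouped by surgery and week from the sample labels. RNA integrity numbers were 7.8 to 9.3 per the study's methods, which put the replicates at 5 per condition for either week, while the labels give 4 at 12 weeks. The authors checked reads with fastp 0.20.0, aligned them with STAR 2.7.6a to Rnor_6.0, took out duplicates with Sambamba, ran featureCounts 2.0.0 for the counts per gene (strand setting not given in the sources used here) and divided them by DESeq2 1.24.0 size factors. The authors deposited these normalized reads, a signal, in 1 table per week. Those tables also hold the authors' comparison of OA with sham (mean level, log2 fold change, its standard error, a test score, p-value and adjusted p-value), which was not used. All values were whole multiples of 1 read (100% within 0.01 of a read), so each count of reads was recovered.

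OA was compared with sham in limma 3.58.1 (R 4.3.3; moderated test with a mean-variance trend) on log2(normalized reads + 1), which understates fold changes of low genes, for genes averaging 10 or more, with Benjamini-Hochberg adjustment over all of them. Each cytokine gene, Tnf included, was also tested by an exact permutation test over libraries, with no adjustment over these genes. The difference between weeks used log2 CPM with TMM scaling and a prior count of 2. Alternatives were edgeR 4.0.16 and DESeq2 1.42.0 on recovered reads, pseudocounts of 0.5 and 5, a minimum mean of 50 or any read at all, TMM scaling, no fold-change minimum, a replicate block and leaving out each library. The tests were also run on simulated data, with the same dispersion for every gene and no difference between libraries but depth. That run does not cover genes of wider spread. Repeated deposits were checked by chi-square tests of the reads of 2 libraries of 1 group (5.39 to 35 per degree of freedom over 32 pairs), and each library was counted as a separate sample. Labels and methods describe each library as a separate pool of rats.

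All 10 cytokine genes are named. From each pathway list the genes named are those called, then those whose groups did not overlap at that week, and otherwise the highest and the lowest log2 fold change. The genes named as most like a cytokine gene are the 3 with the highest r. The cytokine genes and the lists were chosen with earlier results of these data known. Python 3.11.15, numpy 2.4.6, pandas 2.3.3 and matplotlib 3.10.9 were used.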

Additional observations from a re-analysis of the deposited data

Results flagged for a closer look

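Single libraries were examined for a gap to the rest of their group above Dixon's 95% critical value, in 44 groups of 4 or 5 libraries (10 genes and the Il1rn to Il1b difference in 4 groups each). Chance flags about 1 in 20 groups, and 2 of 44 were flagged. Sham replicate 3 of 4 weeks, the library with the fewest reads, had 1031 normalized reads of Il16, against 805 to 861 in the other 4 sham libraries. Sham replicate 3 of 12 weeks had 1900 normalized reads of Il6, against 740 to 849 in the other 3 sham libraries. No cytokine gene passed the test of a difference between the 2 time points.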

How the results depend on the processing

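No cytokine gene was called under any of 305 alternatives for the 18 log2 fold changes, which kept their sign in all but 15 cases in 5 results. These were Il10 at 4 weeks (leaving out 1 library in turn, -0.31 to 0.058), Il16 at 4 weeks (0.044 with TMM scaling, 0.056 in edgeR, and -0.089 to 0.056 with a library left out) and, with a library left out at 12 weeks, Il16 (-0.11 to 0.046), Il1rn (-0.35 to 0.012) and Il6 (-0.48 to 0.052). Il18 at 4 weeks had an unadjusted p of 0.000839 to 0.012 in limma, edgeR or DESeq2 in its 18 alternatives, with adjusted p from 0.105 to 0.796, and at 12 weeks 15 of 16 were under 0.05. Over all genes at 4 weeks, the count called was 0 in limma, 1 with TMM scaling, 1 in edgeR, 31 in DESeq2 and 0 to 1 with a library left out (1 without sham replicate 3). At 12 weeks it was 0 in limma, 100 in DESeq2, and 0 to 81 with a library left out (81 without sham replicate 3 and 1 without sham replicate 4). The exact permutation test passed 1 cytokine gene (Il18) at 4 weeks, and 1 to 2 with a library left out, the other being Il1rn (without OA replicate 2 or sham replicate 3) or Osm (without sham replicate 1). At 12 weeks it passed 1 (Tnf), and 0 with a library left out, where the smallest p possible is 0.0571. Passing here means an unadjusted exact p under 0.05. The exact test was run on the cytokine genes only, with no adjustment over them. The share of all genes that would pass was not computed, so these counts have no background to be read against. With a replicate block limma called 1 gene at 4 weeks and 0 at 12 weeks, and no cytokine gene. Libraries of the same number deviated from their group means with correlations of -0.04 to 0.32 over 9 pairs. OA and sham libraries of different numbers were not compared, so whether the numbers stand for a shared block was not tested. The libraries came from different rats. With the block, the unadjusted p in limma fell from 0.0513 to 0.00373 for Il1rn at 4 weeks (adjusted p = 0.482). For Il10 at 12 weeks it fell from 0.0547 to 0.00408 (adjusted p = 0.150). Between the time points, 0 cytokine genes differed under every alternative. Depth limits Tnf, at 0 to 12 reads per library. The causes of these changes were not tested.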
